A study of Mus musculus with 8 samples.

Results

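Transcripts of 10 genes of epidermal desquamation were examined in isolated back skin epidermis of mice aged 22 months, in 3 wild type (WT) and 5 Tgfa knockout (KO) libraries. The genes were the kallikreins Klk5, Klk6, Klk7, Klk8 and Klk11, the kallikrein inhibitor Spink5, the membrane-anchored proteases St14 (matriptase) and Prss8 (prostasin), and the Kunitz-type inhibitors Spint1 and Spint2. The rule for the set names them by function and uses no value from these libraries, but it was chosen with earlier results of these data known. All 10 were found by identifier among the 49315 genes in the files, and all 10 were among the 19239 that passed the filter on low counts. The product of Tgfa activates the EGF receptor, and the series asks what its absence does to hair follicles as mice age. The cell type label of every library was keratinocytes. Mouse strain, sex, the structure of the Tgfa allele and the number of animals behind a library were not given in the sources used here, and p-values therefore reflect only how these libraries vary, which may be technical.

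Corneocytes are held together at the skin surface by corneodesmosomes, which must be cut before cells can be shed. The trypsin-like kallikreins KLK5 and KLK8 and the chymotrypsin-like KLK7 are secreted by granular keratinocytes and cut corneodesmosome proteins, and LEKTI, the product of Spink5, holds kallikreins in check until the acid surface layers release them. Matriptase and prostasin form a linked protease pair needed for epidermal barrier formation, and the products of Spint1 and Spint2 are their cell surface inhibitors. Loss of LEKTI causes Netherton syndrome, in which the horny layer is shed too early.

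Upstream sequences of 3 of these genes are shown here. Klk7 had the highest level per length of the 10 genes, while Spint1 and Spint2 varied together over the libraries (Pearson r = 0.908). St14 and Prss8 had a higher r (0.925), and that of Spint1 and Spint2 dropped to 0.629 without KO replicates 1 and 2. No upstream sequence of St14, Prss8 or Spink5 was examined, and a link of motifs to levels was not tested. Each run is the 250 bases before a RefSeq transcript start on GRCm38.p6, written 5′ to 3′ on the strand of the gene, and lies outside every exon in the files. Capitals mark GC boxes (GGGCGG or its complement CCGCCC), a motif bound by Sp and KLF family factors.
Klk7 (chr7:43811044-43811293, plus strand): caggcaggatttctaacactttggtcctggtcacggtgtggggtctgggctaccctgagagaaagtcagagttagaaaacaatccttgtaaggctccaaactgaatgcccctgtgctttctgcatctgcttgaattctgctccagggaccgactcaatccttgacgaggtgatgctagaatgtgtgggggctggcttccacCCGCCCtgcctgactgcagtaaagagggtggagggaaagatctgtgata
Spint1 (chr2:119237110-119237359, plus strand): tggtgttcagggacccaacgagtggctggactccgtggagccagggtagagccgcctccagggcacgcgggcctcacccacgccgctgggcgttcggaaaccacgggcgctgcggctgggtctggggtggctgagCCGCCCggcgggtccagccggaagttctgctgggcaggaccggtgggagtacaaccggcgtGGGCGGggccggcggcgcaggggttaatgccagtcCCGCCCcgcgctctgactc
Spint2 (chr7:29281978-29282227, minus strand): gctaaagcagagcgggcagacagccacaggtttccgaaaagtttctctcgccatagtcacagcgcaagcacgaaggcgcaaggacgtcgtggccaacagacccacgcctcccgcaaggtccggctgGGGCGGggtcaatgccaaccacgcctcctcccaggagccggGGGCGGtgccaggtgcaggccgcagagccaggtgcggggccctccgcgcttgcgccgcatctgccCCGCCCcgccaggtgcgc
The Klk7 window held 1 GC box, which began 49 bases before the start. The Spint1 window held 3, at 115, 54 and 19 bases before the start, and the Spint2 window also held 3, at 124, 83 and 18 bases before it. Of 32851 RefSeq windows of this length, 32.7% held a GC box on either strand. The letters TGANTCA (AP-1), TATAAA or TTGCNNAA (C/EBP) did not occur in these 3 windows on either strand, and occurred in 6.75%, 12.4% and 9.56% of all windows. No matches overlapped in the windows shown. Windows of Klk5, Klk6, Klk8 and Klk11 were searched too and are not shown. Each Klk11 window held a C/EBP match, those of Klk6 and Klk8 held GC boxes, and that of Klk5 held none of these motifs.

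Several libraries stood apart in ways that touch every value below. Tgfa itself was 92.5, 85.1 and 112 CPM (counts scaled to library size with TMM factors) in WT replicates 1 to 3. It was 132 CPM in the library labelled KO replicate 1, above every WT library. In KO replicates 2 to 5 it was 34.4, 43.3, 36.2 and 70.2 CPM, below every WT library. Tgfa transcript was thus counted in every KO library. KO minus WT for Tgfa was -0.61 on the log2 scale (SE 0.43, edgeR adjusted p = 0.899) and did not pass. The structure of the allele was not given, so the level in the library labelled KO replicate 1 cannot show whether its label is right. Total counts ran from 5313552 in KO replicate 2 to 18292303 in WT replicate 1. The nuclear transcript Malat1 made up 6.61% of the total for WT replicate 3, 4.88% for the library labelled KO replicate 1 and 1.34% to 1.84% for the remaining 6. Olfactory and vomeronasal receptor genes, which keratinocytes are not known for, had 4.54 counts per kb in KO replicate 2, 1.83 in WT replicate 3 and at most 0.929 in the others. At that density such counts would make up 0.767% to 8.38% of the counts of the 10 genes in KO replicate 2, most for Klk6, and at most 1.18% in any other library. Names of KO replicates 3 to 5 carry the ending bl and those of the other 5 libraries br, and no source used here explains the endings. Where they move a value, results are therefore also given without WT replicate 3 and KO replicates 1 and 2 (2 WT against 3 KO libraries, in which the ending and the genotype cannot be told apart), or among libraries ending in br.

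None of the 10 genes passed the test of KO against WT. Log2 fold changes were positive for 4 and negative for 6, with a median of -0.2, against a median of 0.16 over all genes tested, of which 61.9% were positive. The median of the 10 was 0.19 for br libraries alone, -0.52 without WT replicate 2, -0.5 without the library labelled KO replicate 1 and -0.02 without WT replicate 3. In the same edgeR quasi-likelihood fit 0.0052% of genes passed a Benjamini-Hochberg adjusted p of 0.05. None of the 10 had an unadjusted p under 0.05, where 6.28% of all genes did. The groups did not overlap in 0 of the 10, and in 5.15% of all genes tested. Some genes below had 4 of 5 KO libraries outside the range of the 3 WT libraries. The share of all genes with this pattern was not counted. DESeq2, which called 0.319% of genes (0.093% as lower in KO), and limma voom without weights also called 0 of the 10. DESeq2 was run without the filter on low counts, so its shares are over 43007 genes, against 19239 in edgeR. Without WT replicate 3 and KO replicates 1 and 2, edgeR called 10.6% of genes (5.32% as lower) and 0 of the 10. When only KO replicates 3 to 5, the bl libraries, were set against WT, it called 0.122% (0.0637% as lower) and again 0 of the 10. The biological coefficient of variation was 63.7%, so the 95% intervals below are wide and leave room for changes in either direction. In bulk RNA, fewer granular cells and less transcript per granular cell cannot be told apart.

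**Figure D1:**
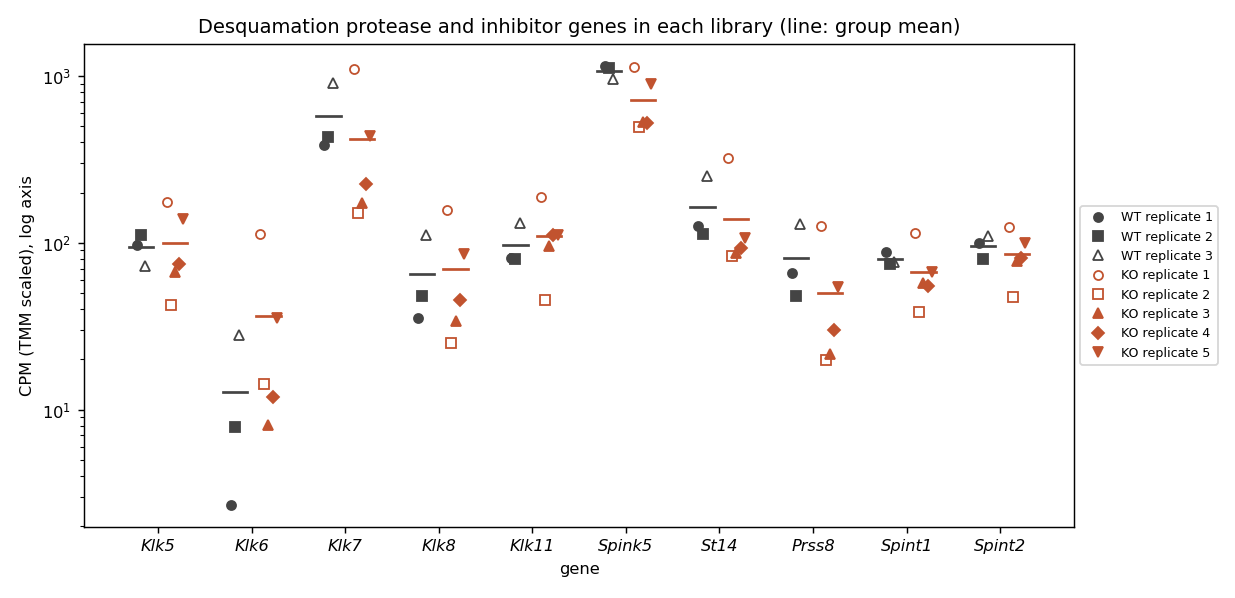
CPM of the 10 genes in each library on a log axis, with WT in grey, KO in orange and a line at each group mean. Open symbols are WT replicate 3 and KO replicates 1 and 2. The KO points span the WT points in most genes, and for Spink5 KO replicates 2 to 5 (492 to 892 CPM) lie below the 3 WT libraries (956 to 1149 CPM).

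Per length, Klk7 and Spink5 were the most abundant transcripts of the set in WT epidermis. Klk7 had a mean level of 304.8 CPM per kb and Spink5 of 224.1, and only 0.499% and 0.712% of tested genes had a higher level per kb. Their WT ranges overlapped (205 to 482 against 200 to 240 CPM per kb), while Spink5 lay above Klk5 in all 3 WT libraries. Then came Klk5 at 70.2, Klk11 at 66.5, Prss8 at 43.7, Klk8 at 42.2, Spint1 at 28.9, St14 at 21.4 and Spint2 at 21.1 CPM per kb, and each of these overlapped the next. Klk6 was the scarcest at 8.47 CPM per kb, with 27% of genes above it. The spread between libraries also differed among the genes. The highest library was 41.8 times the lowest for Klk6, 7.24 times for Klk7 and 6.47 times for Prss8, but 2.34 times for Spink5, 2.64 times for Spint2 and 3 times for Spint1.

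Klk7, the chymotrypsin-like enzyme of the horny layer, was 388, 431 and 914 CPM in WT replicates 1 to 3. It was 1095 CPM in the library labelled KO replicate 1, and 151, 172, 226 and 437 CPM in KO replicates 2 to 5. KO replicates 2 to 4 lay below every WT library and the library labelled KO replicate 1 above all of them. KO minus WT was -0.47 on the log2 scale (95% interval -1.91 to 0.97, SE 0.64; edgeR adjusted p = 0.935). It was 0.16 among libraries ending in br and -0.58 without WT replicate 3 and KO replicates 1 and 2, and neither passed.

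Klk5, a trypsin-like kallikrein that can activate others of the family, had nearly equal group means. It was 96.8, 112 and 72.6 CPM in the WT libraries, 176 in the library labelled KO replicate 1, and 42.4, 67, 75 and 138 CPM in KO replicates 2 to 5. KO replicates 2 and 3 lay below the WT range, and the library labelled KO replicate 1 and KO replicate 5 above it. KO minus WT was 0.09 on the log2 scale (95% interval -0.87 to 1.05, SE 0.43; edgeR adjusted p = 0.976), and -0.22 without the library labelled KO replicate 1.

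Klk8, also called neuropsin, and Klk11 also had overlapping groups with close means. Klk8 was 65 ± 41 CPM (SD) over the 3 WT libraries and 69.3 ± 53.9 over the 5 KO libraries, or a log2 difference of 0.09 (95% interval -1.25 to 1.44, edgeR adjusted p = 0.982). It ran from 25.2 CPM in KO replicate 2 to 156 in the library labelled KO replicate 1. Klk8 shares 382 exon bases with the antisense gene 2310002F09Rik, which had 49 to 700 counts per library, and without strand information reads there cannot be told apart. Klk11 was 97.6 ± 29.4 CPM for WT and 111 ± 51.1 for KO, or a log2 difference of 0.18 (95% interval -0.71 to 1.07, edgeR adjusted p = 0.952). Without WT replicate 3 and KO replicates 1 and 2, Klk11 was 0.37 (adjusted p = 0.0873).

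Klk6 had the widest difference of means and the widest spread. It was 2.69, 7.87 and 27.9 CPM in the WT libraries, 112 in the library labelled KO replicate 1, and 14.2, 8.13, 11.9 and 35.2 CPM in KO replicates 2 to 5. No KO library lay below the lowest WT library and 2 lay above the highest. KO minus WT was 1.51 on the log2 scale (95% interval -0.68 to 3.71, SE 0.98; edgeR adjusted p = 0.881). It was 0.44 without the library labelled KO replicate 1 and 2.79 without WT replicate 3, so single libraries set its size.

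Spink5 had the lowest unadjusted p of the 10 genes (0.107) and was the only one of them called in any of 20 alternative settings. It was 1149, 1113 and 956 CPM in WT, 1139 in the library labelled KO replicate 1, and 492, 529, 522 and 892 CPM in KO replicates 2 to 5. KO replicates 2 to 5 lay below every WT library. KO minus WT was -0.59 on the log2 scale (95% interval -1.32 to 0.15, SE 0.33; edgeR adjusted p = 0.848). It was negative in all 20, from -0.84 to -0.4. In limma voom with sample quality weights, which weighted WT replicate 3 and KO replicates 1 and 2 at 0.284 to 0.366 and the others at 1.47 to 2.26, Spink5 fell by 0.84 on the log2 scale (SE 0.214, adjusted p = 0.037). That fit called 6.46% of all genes and 3.07% as lower. In leave-one-out runs of the weighted fit, added after the data were seen, the Spink5 call was lost without WT replicate 1 (-0.63, adjusted p = 0.321), WT replicate 2 (-1, 0.588), KO replicate 3 (-0.65, 0.18) or KO replicate 4 (-0.6, 0.215), and held without each of the other 4 libraries. The 4 runs in which the call held called 1290 to 1900 genes each, with 17729 to 20297 tested. Among libraries ending in br the log2 fold change of Spink5 was -0.42 (edgeR adjusted p = 0.993).

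The matriptase gene St14 was 126, 113 and 251 CPM in WT, 323 in the library labelled KO replicate 1, and 83.5, 87, 93.3 and 107 CPM in KO replicates 2 to 5. Those 4 libraries lay below every WT library and the remaining KO library above all of them. KO minus WT was -0.23 on the log2 scale (95% interval -1.35 to 0.88, SE 0.5; edgeR adjusted p = 0.95). The br libraries alone gave 0.34, leaving out the library labelled KO replicate 1 gave -0.82, and neither passed.

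Prss8, the gene of prostasin, had the largest negative value of the set. It was 65.9, 47.8 and 129 CPM in WT, 126 in the library labelled KO replicate 1, and 20, 21.6, 30 and 54.4 CPM in KO replicates 2 to 5. KO replicates 2 to 4 lay below the WT range. KO minus WT was -0.68 on the log2 scale (95% interval -2.03 to 0.66, SE 0.6; edgeR adjusted p = 0.92), from -1.36 without the library labelled KO replicate 1 to -0.18 without WT replicate 3. The br libraries alone gave -0.1. With library weights Prss8 was -0.84 (limma adjusted p = 0.153), and passed only when KO replicate 5 was left out (-1.08, adjusted p = 0.0483). That run called 1416 of the 19013 genes tested. Prss8 shares 122 exon bases with Kat8 on the other strand, a gene of 56 to 321 counts per library.

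The genes of their inhibitors varied less. Spint1 was 88.2, 74.2 and 77.1 CPM in WT, 115 in the library labelled KO replicate 1, and 38.4, 57.8, 55.4 and 66.7 CPM in KO replicates 2 to 5. As for St14, those 4 libraries lay below every WT library. The log2 fold change of Spint1 was -0.26 (SE 0.32, 95% interval -0.98 to 0.46, edgeR adjusted p = 0.935), and -0.47 without WT replicate 3 and KO replicates 1 and 2 (adjusted p = 0.0605). It was -0.06 for br libraries alone, and from -0.55 without the library labelled KO replicate 1 to -0.13 without WT replicate 1. Spint2 was 96.2 ± 15.4 CPM (SD) over the 3 WT libraries and 86.2 ± 28.7 over the 5 KO libraries, or a log2 difference of -0.16 (95% interval -0.82 to 0.51, edgeR adjusted p = 0.943). Its lowest library was KO replicate 2 at 47.2 CPM. Left-out libraries gave -0.52 (without WT replicate 2) to -0.04 (without KO replicate 2).

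**Figure D2:**
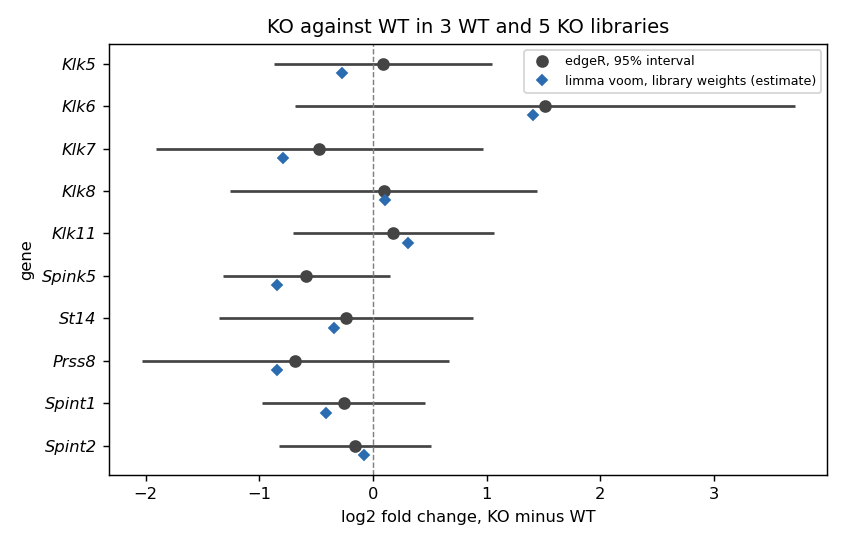
Log2 fold change of each gene, KO minus WT, from edgeR with its 95% interval (grey), and the estimate of limma voom with sample quality weights (blue). All 10 intervals include 0, the narrowest side being that of Spink5 (upper bound 0.15).

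The libraries differed from each other across the whole set more than the groups did. All 10 genes were above the WT mean in the library labelled KO replicate 1, with a median deviation of 0.96 on the log2 scale. In KO replicates 2 and 3, 9 of the 10 were below it (medians -1.09 and -0.61), and 8 in KO replicate 4 (median -0.43), while KO replicate 5 had 5 above and 5 below (median -0.09). WT replicate 3 had 7 genes above (median 0.59), and WT replicates 1 and 2 had medians of -0.2 and -0.25. The exceptions to the low values of KO replicates 3 and 4 were Klk11 in both and Klk6 in KO replicate 4. In KO replicate 2 the exception was Klk6, the gene with 8.38% of its count at the receptor gene density there.

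**Figure D3:**
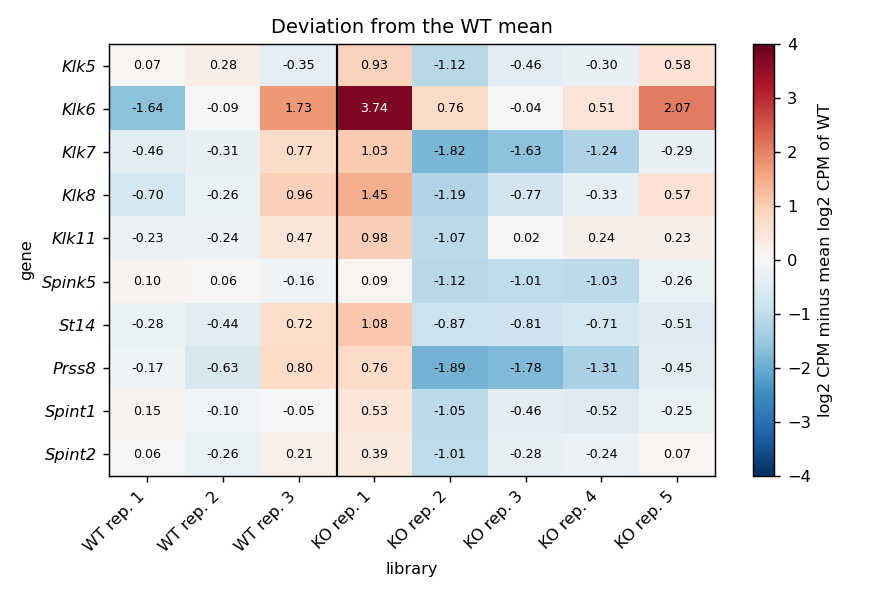
Log2 CPM of each gene (rows) in each library (columns) minus the mean log2 CPM of the 3 WT libraries, with WT left and KO right of the line. The library labelled KO replicate 1 is above the WT mean for all 10 genes, and KO replicate 2 below it for 9.

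The 7 pairs examined in the protease network varied together over the 8 libraries. So did most of the set, with 10 genes above the WT mean in the library labelled KO replicate 1 and 9 below it in KO replicate 2. Pairs outside these 7 were not compared, so whether the relations are particular to partners was not tested. The 7 pairs chosen were compared on log2 CPM, with exact permutation p-values over all pairings, two-sided, adjusted over the 7 pairs. St14 and Prss8 had a Pearson r of 0.925 (exact permutation p = 0.000174, adjusted 0.00122) and a Spearman rho of 0.952 (exact permutation p = 0.00114, adjusted 0.00399). Without WT replicate 3 and KO replicate 1, the libraries farthest from the St14 median, r was 0.975. St14 and its inhibitor gene Spint1 had r = 0.797 (exact permutation p = 0.0116, adjusted 0.0178) and rho = 0.952 (exact permutation p = 0.00114, adjusted 0.00399), and r = 0.924 without the same 2 libraries.

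For Prss8 and Spint2, r was 0.862 (exact permutation p = 0.000645, adjusted 0.00226) and rho 0.929 (exact permutation p = 0.00223, adjusted 0.00521), with r = 0.913 without WT replicate 3 and KO replicate 2. Spint1 and Spint2 had r = 0.908 (exact permutation p = 0.00268, adjusted 0.00625) and rho = 0.786 (exact permutation p = 0.0279, adjusted 0.0489), which dropped to r = 0.629 without KO replicates 1 and 2. Klk7 and Spink5 had r = 0.831 (exact permutation p = 0.0127, adjusted 0.0178) and rho = 0.667 (exact permutation p = 0.0831, adjusted 0.0831), with r = 0.745 without KO replicates 1 and 2. Klk5 and Spink5 had r = 0.765 (exact permutation p = 0.0306, adjusted 0.0356) and rho = 0.667 (exact permutation p = 0.0831, adjusted 0.0831), with r = 0.606 without those 2 libraries. Klk5 and Klk7 had r = 0.715 (exact permutation p = 0.0456, adjusted 0.0456) and rho = 0.762 (exact permutation p = 0.0368, adjusted 0.0515). That relation rested on KO replicates 1 and 2, since r was 0.277 without them. All values of a library share its scaling factor and depth. Neither label ending and neither genotype holds 6 libraries, so no relation was computed within them.

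The balance of a protease with its inhibitor, given as a log2 ratio of levels per kb, overlapped between the groups in all 6 pairs examined. Such ratios do not depend on the scaling of a library. In Klk5 to Spink5 and in Prss8 to Spint2, 4 of the 5 KO libraries lay outside the WT range. That range rests on 3 libraries and is easily left. How often 4 of 5 KO libraries lie outside it in other ratios was not counted. Klk5 to Spink5 was -1.73, -1.47 and -1.88 in WT, -0.85 in the library labelled KO replicate 1, and -1.7, -1.14, -0.96 and -0.85 in KO replicates 2 to 5. All KO libraries but KO replicate 2, which was within the WT range, were above every WT library. The group means were -1.69 ± 0.21 (SD, n = 3) and -1.1 ± 0.35 (n = 5), a difference of 0.59, for which no test was run. The difference from WT was 0.42 for the KO libraries ending in br and 0.71 for those ending in bl.

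Prss8 to Spint2 was 0.71, 0.56 and 1.53 in WT, 1.31 in the library labelled KO replicate 1, and 0.06, -0.56, -0.13 and 0.42 in KO replicates 2 to 5. KO replicates 2 to 5 were below every WT library, and the difference of means was -0.72. It was -0.25 for the KO libraries ending in br and -1.02 for those ending in bl, which are 3 of the 4 low libraries. Prss8 to Spint1 differed by -0.58, with 3 KO libraries below the WT range. The means of Klk7 to Spink5, St14 to Spint1 and St14 to Spint2 differed by -0.12, -0.01 and -0.15. In each of these 3 the KO libraries ending in br were above the WT mean (by 0.12, 0.36 and 0.42) and those ending in bl below it (-0.29, -0.26 and -0.53). WT replicate 3 had the highest WT value in each of these 3 ratios and in both Prss8 ratios.

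**Figure D4:**
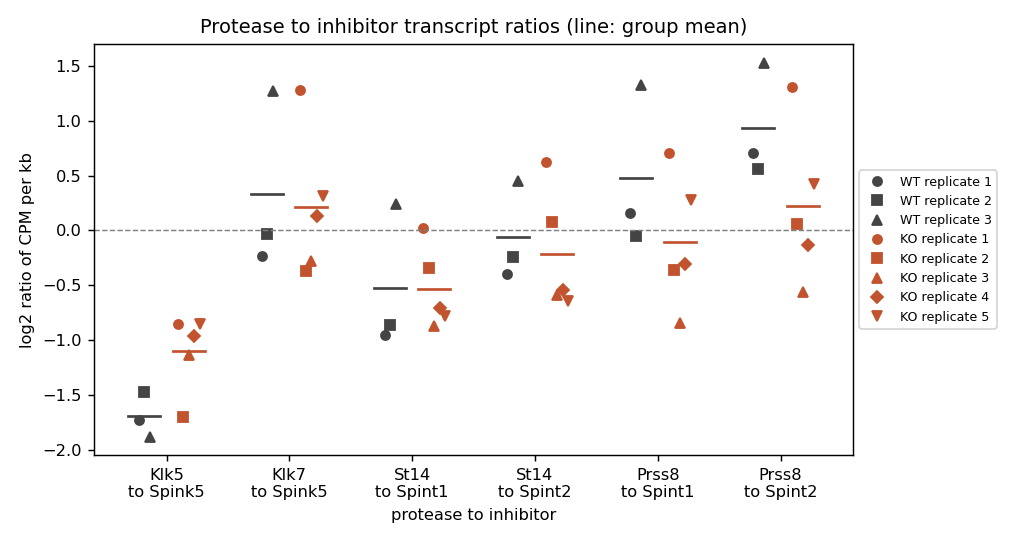
Log2 ratio of CPM per kb of each protease gene to an inhibitor gene, per library, with a line at each group mean. For Klk5 to Spink5, 4 of 5 KO libraries lie above the WT range of -1.88 to -1.47, and for Prss8 to Spint2, 4 lie below the lowest WT value of 0.56.

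The 5 kallikreins of the set lie on the plus strand of chromosome 7 within 76.6 kb (43774604 to 43851181, GRCm38), in the order Klk11, Klk8, Klk7, Klk6, Klk5, with Klk10 and Klk9 between Klk11 and Klk8. Spint2 (29256323 to 29281912) and Prss8 (127925716 to 127930104) are elsewhere on chromosome 7, Spint1 on chromosome 2 (119237362 to 119249527), St14 on chromosome 9 (31089402 to 31131853) and Spink5 on chromosome 18. All are protein-coding genes with the same bounds in the files and in GENCODE M21. Levels along the locus differed widely between neighbours. Klk6 (8.47 CPM per kb in WT) lies between Klk7 (304.8) and Klk5 (70.2), and in each WT library it was below both. Among kallikreins outside the set, Klk9 had 51.3 CPM per kb in WT, Klk10 22.7, Klk12 10.8 and Klk13 2.87. Klk14, Klk4, Klk15 and Klk1 were at most 0.658.

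**Figure D5:**
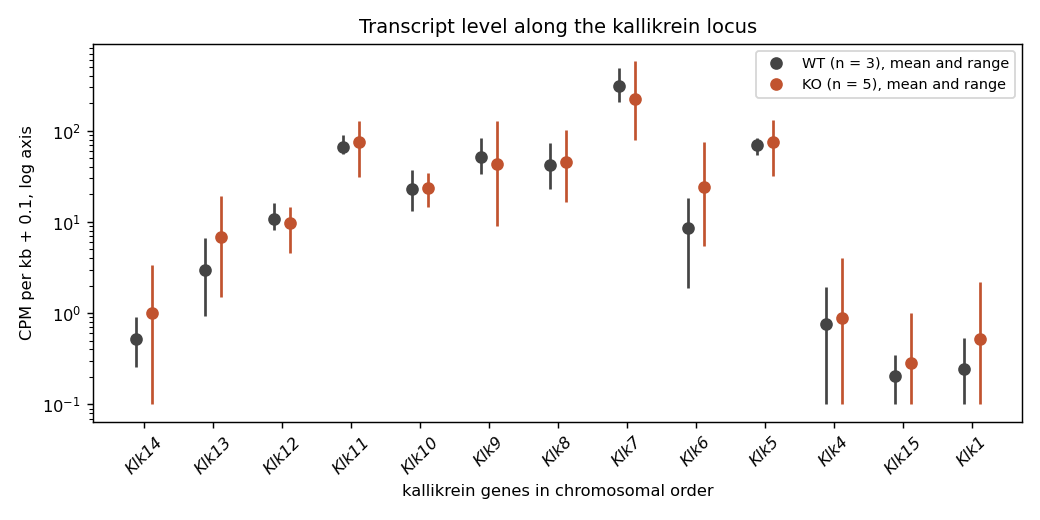
Mean (points) and range (lines) of CPM per kb, plus 0.1 and on a log axis, for 13 kallikrein genes in chromosomal order, in WT (grey) and KO (orange). Klk7 is highest in both groups (304.8 and 220 CPM per kb), and the WT and KO ranges overlap for each gene shown.

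Of the 8 other kallikreins, 5 were tested and none passed in edgeR or at an unadjusted p under 0.05, with 3 positive values and a median log2 fold change of 0.05. Klk9 was 75.8 ± 40.5 CPM for WT and 64 ± 73.1 for KO (log2 difference -0.24), and Klk13 6.59 ± 7.43 and 15.5 ± 16.3 (1.25). Klk10 (0.05) and Klk12 (-0.14) had nearly equal means. Like Klk6 and Klk8, Klk9 and Klk13 had their highest values in the library labelled KO replicate 1, at 190 and 43.9 CPM.

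Among 21 other trypsin-like proteases of skin, 18 were tested, 0 passed in edgeR, 2 had an unadjusted p under 0.05, 14 were positive, and the median was 0.59. Over all genes tested, 6.28% had such a p and the groups did not overlap in 5.15%, against 2 of these 18. The most abundant were Tmprss11f (-0.29), the proprotein convertase gene Furin (0.07), Tmprss4 (0.36) and Tmprss13 (-0.39), a membrane-anchored protease gene. Tmprss13 was 126 ± 70.9 CPM in WT and 96.2 ± 81.8 in KO, with KO replicates 2 to 5 below the WT range, as for St14. KO replicate 5 (75.58 CPM) was barely below the lowest WT library (75.81). In the fit with library weights Tmprss11b (2.88) and Plau (1.05), the urokinase gene, rose (limma adjusted p = 0.0329 and 0.0426), both outside the naming rule and chosen after their values were seen. These were 2 of the 18 tested, in a fit that called 6.46% of all genes. Tmprss11b was 0.0782 to 0.794 CPM in WT and 2.44 to 4.5 in KO, so the groups did not overlap at these low levels.

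None of 15 cathepsins and other proteases of cornification passed in edgeR or had an unadjusted p under 0.05, with 8 positive values and a median of 0.05. Asprv1, which encodes the filaggrin-processing protease SASPase, was 1490 ± 1435 CPM for WT and 1214 ± 1633 for KO (log2 difference -0.3), and its 2 highest libraries were the library labelled KO replicate 1 (4093 CPM) and WT replicate 3 (3146). Casp14, the caspase of cornification, was 156 ± 56.4 and 470 ± 412 CPM (1.59, edgeR adjusted p = 0.813). Ctsb and Ctsd were 0.11 and 0.05. Ctsl, the mouse cathepsin L gene, is outside the naming rule and was added because cathepsins related to it act in desquamation. It was 30.9 to 92.3 CPM in KO replicates 2 to 5, 83.2 and 108 in WT replicates 2 and 1, while the library labelled KO replicate 1 (469) and WT replicate 3 (421) were highest.

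Of 38 other protease inhibitor genes, 30 were tested and 0 passed in edgeR, with 8 at an unadjusted p under 0.05, 21 positive values and a median of 0.34. Over all genes tested, 6.28% had such a p and the groups did not overlap in 5.15%, against 6 of these 30. The most abundant were Serpinb2 (1829 ± 1449 CPM in WT, 794 ± 236 in KO, log2 fold change -1.2), Serpinb5 (-0.15), Cd109 (0.11) and Serpinb8 (-0.58), whose KO replicates 2 to 5 were below every WT library. The fit with library weights called 6.46% of all genes. In it 3 of the 30 inhibitor genes tested rose and 0 fell, named here after their values were seen. They were Serpinb12 (1.64, limma adjusted p = 0.00558), Serpinb3b (2.44, 0.00539) and Stfa3 (5.24, 0.0136), and DESeq2 called these 3 and Stfa1 (for the 3, adjusted p = 0.00653, 0.00779 and 2.5e-05). Serpinb12 was 15.5, 18.3 and 8.44 CPM in WT, 47.5 in the library labelled KO replicate 1, and 22.1, 57.9, 40.7 and 65.2 CPM in KO replicates 2 to 5, so the groups did not overlap. Serpinb3b and the Stfa genes belong to families of near-identical genes, so their counts are uncertain.

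The substrates of desquamation gave no call in edgeR. Of 14 corneodesmosome and desmosome genes all were tested, 0 passed in edgeR, 1 had an unadjusted p under 0.05, 6 were positive, and the median was -0.01. Over all genes tested, 6.28% had an unadjusted p under 0.05. Desmoplakin (Dsp) was 7881 ± 1950 CPM in WT and 6894 ± 1674 in KO, and Dsg1a, a desmoglein cut by kallikreins, 2574 ± 1417 and 2562 ± 599 (log2 fold changes -0.19 and -0.01, edgeR adjusted p = 0.938 and 0.997). Perp and Dsc3 were -0.08 and 0.03. Dsg1a has close copies, so its count is uncertain. Cdsn, the gene of corneodesmosin, the best known kallikrein substrate, falls outside the naming rule. It was 1256, 1109 and 2018 CPM in WT, 2643 in the library labelled KO replicate 1, and 263, 455, 536 and 945 CPM in KO replicates 2 to 5. As for St14, KO replicates 2 to 5 lay below every WT library and the remaining KO library above them.

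Of 17 substrates and targets of the cascade, 16 were tested and 0 passed in edgeR or at an unadjusted p under 0.05, with 6 positive values and a median of -0.1. The profilaggrin family genes Flg2 (-0.7), Flg (1.38) and Hrnr (0.77) and the receptor gene Met (-0.46) were the most abundant. F2rl1, which encodes the receptor PAR2 that trypsin-like proteases activate, was -0.57 in edgeR (adjusted p = 0.793) and fell by 0.71 in the fit with library weights (limma adjusted p = 0.0265), where Il1b also fell by 1.59 (adjusted p = 0.0364). Both were named after their values were seen, and were 2 of the 16 tested in that fit, which called 6.46% of all genes.

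Markers of keratinocyte layers differed between libraries. All 8 pan-keratinocyte markers were counted in every library, with summed levels of 15970 to 30330 CPM in WT and 15110 to 33810 in KO. The mean log2 level of 8 basal genes was 10.4 and 10.2 in WT replicates 1 and 2 and 8.69 in WT replicate 3. In KO it was 9.41 in the library labelled KO replicate 1, 9.18 in KO replicate 2 and 10 to 10.3 in KO replicates 3 to 5. The 18 granular and cornified envelope genes had mean log2 levels of 8.36, 8.09 and 8.7 in WT, 9.77 in the library labelled KO replicate 1, 7.41 in KO replicate 2, 8.09 and 8.11 in KO replicates 3 and 4 and 9.19 in KO replicate 5. The library labelled KO replicate 1, with the highest granular level, had the highest value of 8 of the 10 genes, the exceptions being Spink5 (highest in WT replicate 1) and Prss8 (WT replicate 3). KO replicate 2, with the lowest granular level, had the lowest value of 9, the exception being Klk6 (WT replicate 1). The part of these layer differences in the values of the 10 genes was not tested. None of the 18 granular genes or 8 basal genes passed in edgeR (medians -0.11 and 0.02, with 2 and 0 at an unadjusted p under 0.05). Over all genes tested, 6.28% had such a p. The most abundant granular genes had edgeR log2 fold changes of 0.49 (Krt10), 1.44 (Krt1), -0.46 (Dmkn) and -0.7 (Flg2). Those of the most abundant basal genes were 0.13 (Krt5), 0.03 (Col17a1), 0.67 (Krt14) and -0.33 (Dst). In the fit with library weights, which called Spink5, the granular list had a median of -0.48 and the basal list of 0. Of the granular list, the suprabasal keratin gene Krt1 (1.33, limma adjusted p = 0.0264) and Krt2 (2.68, 0.0456) rose in that fit. It called 6.46% of all genes. Krt2 is outside the naming rule and was named after its values were seen. Krt1 was 398 to 2279 CPM in WT, 4292 to 4859 in 4 KO libraries and 1547 in KO replicate 2.

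Of the markers of other cell types none passed in edgeR, and 6 passed in the fit with library weights, named here after their values were seen. That fit called 6.46% of all genes. The 6 lay in the upper hair follicle (9 tested), sebaceous (11) and leukocyte (13) lists, and the other lists, of 6 to 11 tested genes, had none. In the upper hair follicle list, 4 of 9 genes had an unadjusted p under 0.05 in edgeR, where 6.28% of all genes did. In 2 of the 9, Krt79 and Plet1, the groups did not overlap, as in 5.15% of all genes tested. With weights Krt79 (1.57, limma adjusted p = 0.00579), Gata6 (1.22, 0.0442) and Teddm3 (2.13, 0.0192) rose and Plet1 fell (-2.18, 0.00773). Mgst1 of the sebaceous list rose (1.58, limma adjusted p = 0.0247), and Cd207, the langerin gene of Langerhans cells, fell (-1.18, 0.0192). The mean log2 levels of the inner root sheath (5.48), hair shaft (2.7) and sebaceous (4.09) lists were highest in KO replicate 5, and that of the upper follicle list was 6.92 there, near the 6.94 of the library labelled KO replicate 1. The other 6 libraries had upper follicle levels of 5.9 to 6.48.

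Inner root sheath genes summed to 554 to 1059 CPM in WT and 322 to 1224 in KO, mostly Gata3, which epidermis also expresses, and hair shaft genes to 18.9 to 20.9 and 13 to 74.5. Sebaceous gland genes summed to 948 to 1511 CPM in WT and 774 to 1493 in KO, led by Scd1 and Fasn, and upper hair follicle genes to 1043 to 2077 and 1173 to 2352. Leukocyte genes summed to 587 to 804 and 254 to 781 CPM, melanocyte genes to 12 to 22 and 10.5 to 41.9, fibroblast genes to 66.5 to 80.7 and 57.9 to 132, and endothelial, muscle and blood genes to 8.62 to 23 and 6.88 to 88.8. No marker in these lists was at 0 in all 8 libraries. Of the 9, 11, 12 and 9 genes of the inner root sheath, hair shaft, sebaceous and upper follicle lists, 9, 9, 11 and 9 were counted in every library. Of the 13 leukocyte, 7 melanocyte, 8 fibroblast and 11 endothelial, muscle and blood genes, 12, 6, 7 and 8 were. The share of such cells in the values of the 10 genes was not tested.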

How the data were processed

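Each library came with 1 deposited table of raw whole-number counts, not normalized by the authors. Tools named, per the submitters' processing notes, are featureCounts, Subread 1.5.2, the aligner STAR 2.5.2b and the read trimmer Trimmomatic 0.36. The notes name GRCh38 and GRCm38, while the files hold mouse Ensembl genes with GRCm38 bounds. The sources used here do not give strandedness or the handling of reads with several matches. Symbols came from a table that named 48970 of 49315 genes.

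The genes of the set and all gene lists were chosen with earlier results of these data known. Groups follow the genotype label, and replicate numbers follow deposition order and pair nothing. Counts of every pair of libraries differed by more than sampling noise (lowest chi-square per gene 13.74). The test was that of edgeR 4.0.16 under R 4.3.3 (robust quasi-likelihood, TMM, filterByExpr, genotype alone), and p-values were adjusted over all genes tested. Levels per kb use the exon length in the files, and list levels a prior count of 2. Scripts were tested on simulated data. Named were the 10 genes, Tgfa, and list members past the edgeR threshold or else the 4 most abundant of the 8 related lists, beside genes marked as chosen later. Alternatives were DESeq2 1.42.0, limma 3.58.1 voom with and without quality weights, other scalings and filters, the label ending, and left-out libraries.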

Additional observations from a re-analysis of the deposited data

Results flagged for a closer look

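Of 43 values checked in the 5 KO libraries, 9 had 1 library far from the other 4 by Dixon's criterion. The 43 were the 10 genes, 6 ratios and 27 abundant genes of the related lists. Genes of the basal list were not checked. The nominal rate of 1 in 20 holds for independent, normally distributed values. It does not apply here, because genes were checked on unlogged CPM and all 43 values came from the same 5 libraries. The number of flags was therefore not set against chance. Of the 9, 7 were the library labelled KO replicate 1, the highest in each. St14 was 322.7 CPM there against 107.5 in the next KO library (gap over range 0.9, critical value 0.71), and Klk6 112.3 against 35.21 (0.74). Beside these, Klk9 was 190.1 against 63.4 CPM, Klk13 43.93 against 14.06, Tmprss13 240.8 against 75.58, Asprv1 4093 against 971.4 and Ctsb 580.1 against 224.2. The other 2 were low values of KO replicate 2, the shallowest library, with Dsp at 3984 against 7065 CPM and Krt1 at 1547 against 4292.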

How the results depend on the processing

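The number of genes past the threshold, 1 in edgeR with TMM, was 0 with RLE or upper-quartile scaling, 9 with no filter, 137 in DESeq2, 0 in limma voom and 1243 with quality weights. It was 0 among libraries ending in br, 21 with WT against KO libraries ending in bl and 1883 without WT replicate 3 and KO replicates 1 and 2 together, and leaving out 1 library gave 0 to 1. Of the 10 genes, 1 (Spink5) passed with quality weights, and 0 to 2 (1 without WT replicate 3, KO replicate 1 or KO replicate 2, and 2, with Prss8, without KO replicate 5) when a library was left out of that fit, a choice made after seeing the data. The left-out runs with a call among the 10 called 1290 to 1900 genes each, with 17729 to 20297 tested. Of the 137 related genes, 1 passed with no filter, 6 in DESeq2, 9 with quality weights and 16 without the 3 libraries together. In the main fit and with quality weights 122 of them were tested. The other settings named here filtered genes differently, and the number of related genes tested in them was not counted. Of all genes tested, 0.319% passed in DESeq2, 6.46% with quality weights and 10.6% without the 3 libraries. The share with no filter was not computed. Signs turned for Klk5 in limma voom (-0.07, with weights -0.27), against bl libraries (-0.06), without the 3 libraries (-0.19) and over left-out libraries (-0.22 to 0.26). They turned for Klk7 with the ending as covariate (0.11), among br libraries (0.16) and over left-out libraries (-1.23 to 0.02). Klk8 turned with upper-quartile scaling (-0.07), at least 10 CPM in 3 libraries (-0.02), limma voom (-0.04), bl libraries (-0.32) and left-out libraries (-0.46 to 0.73). Klk11 ranged from -0.21 to 0.45 over left-out libraries. St14 turned with the covariate (0.32), among br libraries (0.34) and over left-out libraries (-0.82 to 0.21). The cause was not tested. Klk6 stayed positive and Spink5, Prss8, Spint1 and Spint2 negative in all 20 alternative settings. No paired analysis was possible because the labels carry no replicate numbers and state no pairing. In a name such as KO replicate 1, only the genotype comes from the label, and the number follows deposition order. Depth was lowest in KO replicate 2, at 5313552 counts.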
